A study of Mus musculus with 6 samples.

Results

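The 40 genes described here encode the core of macroautophagy in the mouse, and all 40 were found by symbol among the 55291 genes of the table. They were listed by function: initiation, lipid signalling, membrane supply, conjugation, cargo receptors and the transcription factors Tfeb and Tfe3, together with Wdr45b. Polyadenylated RNA was measured in 3 libraries from wild-type (WT) mice and 3 from mice labelled Gdf9-cre Nat10 cKO, each library made from 10 fully grown oocytes of mature females. Gdf9-cre removes floxed sequence in oocytes, and NAT10 is the enzyme that places N4-acetylcytidine on RNA. All females had received PMSG, a gonadotropin that drives follicle growth, and oocytes were taken up to 48 h later. The start of that window is 32 h in the series' design text and 36 h in the labels' protocol. Whether WT females carried floxed Nat10 without Cre, which exons were removed, and whether each pool came from a separate female cannot be read from the labels. The p-values below therefore measure the spread between these libraries, which may be technical. In a pool, fewer cells with a transcript and less of it per cell cannot be told apart.

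Macroautophagy encloses cytoplasm in a double membrane, the autophagosome, and delivers it to the lysosome. A kinase complex built on ULK1 starts the process, and a lipid kinase complex marks the site with phosphatidylinositol 3-phosphate. Proteins that bind this lipid then bring in a conjugation machinery that acts on the growing membrane, where receptors dock their cargo. In the oocyte and early embryo, autophagy is known for turning over maternal proteins and organelles, and embryos from oocytes without Atg5 fail early when sperm also lack it.

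The libraries held 33.5 to 65.5 M reads in WT and 47.4 to 74.1 M in Nat10 cKO. Nat10, the targeted gene, ranged from 39.4 to 50.1 CPM in WT and from 5.72 to 6.32 CPM in Nat10 cKO libraries. CPM are a gene's reads scaled to a common library total, here after TMM scaling, which sets each gene against the bulk of oocyte mRNA. The 10 oocyte markers summed to 21800 to 22400 CPM in WT and 26600 to 31700 CPM in Nat10 cKO libraries, with 8 called higher and 2 lower by limma. The 12 granulosa markers summed to 393 to 446 CPM in WT and 376 to 414 CPM in Nat10 cKO libraries, most of it Serpine2, and without it to 91.3 to 104 and 91.0 to 109 CPM. Among these markers Inha was called higher and Inhba and Cyp19a1 lower. Amh was at 0 in every WT library and at most 0.138 CPM elsewhere, while Foxl2 reached at most 0.187 CPM. The 10 markers of theca, stroma and endothelium summed to 82.6 to 90.4 and 83.6 to 92.2 CPM, with Col3a1 at 0 in every library. Without Pecam1, which was called higher, they summed to 42.5 to 49.2 CPM in WT and 21.4 to 36.6 CPM in Nat10 cKO libraries, and Cyp17a1, Myh11 and Kdr were called lower. The 8 blood and immune markers summed to 44.0 to 50.1 and 34.9 to 35.5 CPM, nearly all of it C1qb, which was called lower.

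Of the 40 genes, 39 passed the filter on low counts and were tested, and Tfeb did not. Under TMM scaling, 8 were higher and 3 lower in Nat10 cKO oocytes by limma with a Benjamini-Hochberg adjusted p under 0.05. That is 11 of 39, or 28.2%, where 35.0% of all 18353 tested genes passed, 17.4% higher and 17.6% lower. Among the 8, Atg4d passed the filter only through the Nat10 cKO libraries, and without genes that passed it through 1 group only, 7 were higher and 3 lower of 38, where 34.4% of all genes so kept passed. edgeR called 7 higher and 3 lower, where it called 33.8% of all tested genes, 16.6% higher and 17.2% lower. The median log2 change of the 39 genes was 0.09, against 0.00 for all tested genes. Only 4 of the 11 changed by at least 1.5-fold on the log2(CPM + 1) scale: Wdr45b and Atg4a rose, and Wipi1 and Atg10 fell. That is 10.3% of the genes tested here, where 16.0% of all tested genes did so. The groups did not overlap for 20 of the 39, against 48.3% of all tested genes; 14 (35.9%) lay higher and 6 (15.4%) lower in Nat10 cKO libraries, against 24.1% and 24.2% of all. The shares of called genes lie near or below the background. The share that lay higher without overlap lies above it. That share counts Atg4d, which could enter only through the Nat10 cKO libraries, and Wdr45b, so it is not read as a result. What follows concerns the individual genes. Wdr45b had already appeared among the largest rises of this series before the list was drawn up.

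**Figure D1:**
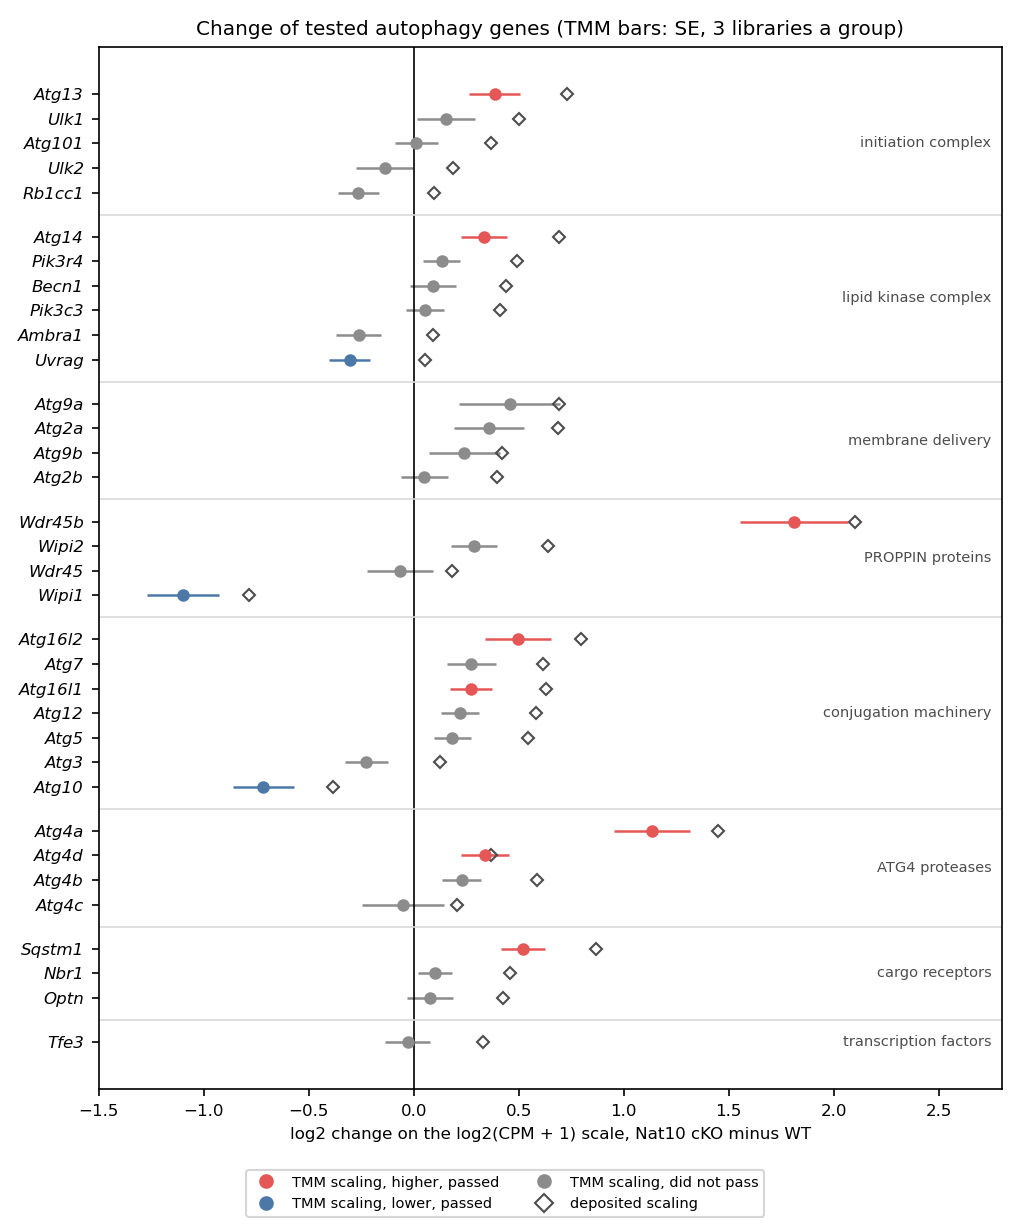
Log2 change (Nat10 cKO minus WT) of tested genes, grouped by role. Filled circles with SE bars are TMM-scaled values and open diamonds are values on the deposited scale. Wdr45b and Atg4a lie far to the right on both scales, and Wipi1 and Atg10 lie to the left on both.

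The scale of the deposited values changed this picture. In these values each library's reads carry a factor of the authors, for which no formula is stated. The labels record ERCC RNA, a control added from outside (0.2 ul at a 1000-fold dilution), for all 6 libraries. Whether the factors rest on it is not stated. As deposited, the median of all tested genes moved to 0.24 and that of the 39 genes to 0.43. Library totals still differed in these values, which summed to 33.5, 47.1 and 61.9 M in WT and 68.2, 43.0 and 66.2 M in Nat10 cKO libraries. How far these totals reflect depth cannot be told without the formula. The log2(CPM + 1) scale also understates changes of low genes. The median level was 33.8 CPM for the 39 genes and 7.76 CPM for all tested genes with an annotated transcript. The part of depth and level in these shifts was not tested. Only Wdr45b and Atg4a passed, both higher, where 7.97% of all tested genes passed, 6.58% higher and 1.39% lower. With the same factors applied to each gene's share of reads, the median log2 changes were -0.15 for all tested genes and -0.12 for the 39. Wdr45b and Atg4a were then higher and Wipi1 and Atg10 lower, where 22.1% of all tested genes passed, 5.60% higher and 16.5% lower. The rises of Wdr45b and Atg4a were thus called on all 3 scales, and the falls of Wipi1 and Atg10 on 2 of the 3, with deposited-scale log2 changes of -0.78 (adjusted p = 0.195) and -0.38 (adjusted p = 0.613) by limma.

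Autophagy and lysosomal genes are classical targets of TFEB and TFE3, which bind an E-box with the letters CACGTG, best in the longer form TCACGTGA. Promoter windows of RefSeq (GRCm38.p6), from 250 bases before to 50 after a start, were matched for 33 of the 40 genes. Wdr45b, Atg16l1, Atg12, Becn1, Rb1cc1, Pik3c3 and Map1lc3a had no window and were not searched. CACGTG, which reads the same on both strands, was present for 4 of these 33 genes (12.1%; 8.09% of all genes with a window), namely Atg3, Atg5, Atg7 and Atg14. TCACGTGA, which contains it, was present for Atg3 alone (3.03%, against 1.12% of all genes). Stretches upstream of the start are shown for Atg3 and Atg5, which hold the motif (in capitals), and for Atg4a, Sqstm1 and Atg10, which passed the test and hold none in their windows.
Atg3: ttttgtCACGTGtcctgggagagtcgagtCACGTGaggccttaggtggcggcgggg
Atg5: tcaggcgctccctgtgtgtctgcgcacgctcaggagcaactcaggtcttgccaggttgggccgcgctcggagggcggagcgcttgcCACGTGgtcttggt
Atg4a: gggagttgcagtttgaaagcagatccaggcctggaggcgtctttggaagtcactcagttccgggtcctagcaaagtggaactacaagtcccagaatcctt
Sqstm1: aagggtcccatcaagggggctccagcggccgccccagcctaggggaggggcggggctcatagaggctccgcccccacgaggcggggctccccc
Atg10: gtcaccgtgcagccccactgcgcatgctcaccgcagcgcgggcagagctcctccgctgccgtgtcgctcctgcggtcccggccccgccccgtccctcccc
They lie at chr16:45158729-45158784 (plus strand), chr10:44268239-44268338 (plus), chrX:140956807-140956906 (plus), chr11:50210828-50210920 (minus) and chr13:91223988-91224087 (minus). Of the 4 genes with the motif, Atg14 passed the test, with a log2 change of 0.34, and Atg3, Atg5 and Atg7 did not, with -0.23, 0.18 and 0.27. The windows of Atg7 and Atg14 lie inside the gene spans of GENCODE M21, the models used for exon lengths, and not at their outer starts. The Atg14 match begins 1 base before its RefSeq start. A match in letters is not a bound site.

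In WT oocytes the 40 genes differed in level over several orders of magnitude. Atg5, whose product is the scaffold of the conjugation machinery, was the highest per length, at 228 ± 14.8 CPM per kb of exon (SD, n = 3). Atg101, a stabilising subunit of the ULK1 complex, followed at 50.5 ± 2.97 CPM per kb, and Atg12, the ubiquitin-like partner of ATG5, at 37.2 ± 2.09. These 3 genes kept ranks 1 to 3 when the longest annotated transcript replaced the union of exons as length. Of 39 neighbouring pairs in this order, 28 had overlapping WT ranges, so most neighbours cannot be ranked. Among the lowest were Atg9a and Atg9b, the lipid scramblases of the growing membrane, at 0.419 and 0.332 CPM per kb, and Atg4d and Tfeb at 0.0112 and 0.00546 CPM per kb.

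**Figure D2:**
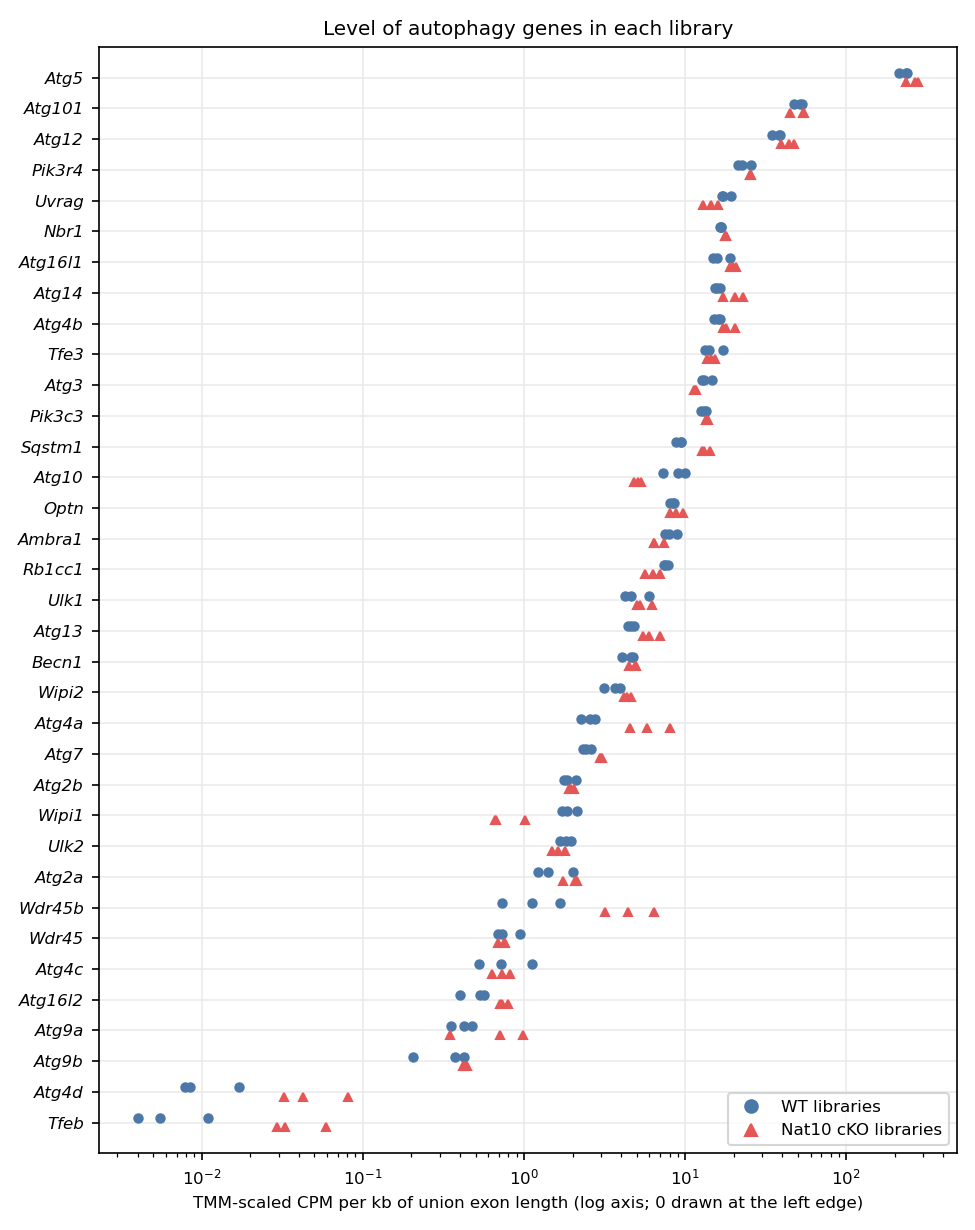
TMM-scaled CPM per kb of union exon length (log axis), 1 point per library, ordered by the WT mean from Atg5 at the top to Tfeb at the bottom. Atg5 stands apart at 228 CPM per kb in WT, and the Wdr45b, Atg4a and Wipi1 points of the genotypes are separated.

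In the initiation complex, 1 of 5 genes passed (20%, where 35.0% of all tested genes passed). Atg13, the regulatory subunit through which nutrient signals reach the kinase, measured 20.3, 21.1 and 19.2 CPM in WT and 26.2, 30.3 and 23.95 CPM in Nat10 cKO libraries. The log2 change was 0.38 (SE 0.121, limma adjusted p = 0.0249), and the lowest Nat10 cKO library lay above the highest WT library. This rise did not pass as deposited, on per-read shares, with no filter or when WT replicate 1, WT replicate 3, Nat10 cKO replicate 1 or Nat10 cKO replicate 2 was left out. The other 4 genes did not pass. Rb1cc1, the large scaffold also called FIP200, had a log2 change of -0.26 (adjusted p = 0.0510), with 82.7 to 103 CPM in Nat10 cKO against 109 to 115 CPM in WT libraries. The kinase genes Ulk1 and Ulk2 had 0.15 and -0.14, and Atg101 had 0.01.

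In the lipid kinase complexes, Atg14 rose and Uvrag fell. Their products compete for the same place beside Beclin 1: ATG14 directs the kinase to the forming autophagosome, and UVRAG directs it to endosomes and later steps. Atg14 measured 66.5, 70.6 and 68.3 CPM in WT and 88.5, 99.1 and 74.2 CPM in Nat10 cKO libraries, a log2 change of 0.34 (SE 0.109, limma adjusted p = 0.0287). Uvrag measured 156, 174 and 154 CPM in WT and 130, 117 and 145 CPM in Nat10 cKO libraries, a log2 change of -0.31 (SE 0.0988, adjusted p = 0.0285). The groups overlapped for neither gene.

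Both calls were lost as deposited, where Uvrag had 0.05, on per-read shares, with no filter, and when WT replicate 1, WT replicate 3, Nat10 cKO replicate 1 or Nat10 cKO replicate 2 was left out. Uvrag also lost its call with library sizes only and without WT replicate 2. The shared core did not pass: Becn1, Pik3c3, which encodes the catalytic subunit, and Pik3r4, its regulatory subunit, had log2 changes of 0.09, 0.06 and 0.13. Pik3r4 was the most abundant per length of the 6, at 23.2 ± 2.14 CPM per kb in WT. Ambra1, a Beclin 1 activator, had -0.26 (adjusted p = 0.0748).

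None of the 4 membrane delivery genes passed limma, where 35.0% of all tested genes passed. None passed edgeR or had an unadjusted p under 0.05 by either. Atg9a had the widest spread, at 2.04, 2.76 and 2.44 CPM in WT and 4.08, 5.70 and 1.99 CPM in Nat10 cKO libraries. Nat10 cKO replicate 3 lay below all WT libraries and the other 2 lay above them, and without that library the log2 change was 0.78 (adjusted p = 0.00522) against 0.46 with it. Atg2a and Atg2b, which encode lipid transfer proteins, had log2 changes of 0.36 and 0.05, and Atg9b had 0.24. Without WT replicate 2, Atg2a had 0.55 and passed (limma adjusted p = 0.0101).

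The PROPPIN genes, whose beta-propeller products read phosphatidylinositol 3-phosphate, held both the largest rise and the largest fall of the 39 on the log2(CPM + 1) scale. The rise is that of Wdr45b, which was listed with its rise in this series already known. Its rank and its calls below are therefore descriptions and no independent support. By edgeR, Atg4d had a larger log2 change than Wdr45b (1.98), but its WT reads were too few for a fold that can be read. Wdr45b (chromosome 11, 121327224 to 121354445, minus strand, GRCm38), also called Wipi3, measured 3.34, 7.64 and 5.15 CPM in WT and 20.2, 29.1 and 14.6 CPM in Nat10 cKO libraries. The Nat10 cKO libraries all lay above the WT libraries, and WT replicate 1 was the lowest of the 6. Wdr45b rose, with a log2 change of 1.81 (SE 0.255, limma adjusted p = 0.000280). Without any 1 library the change stayed between 1.56 and 2.06, and the call held in all 15 alternatives. No exon of Wdr45b overlaps another annotated gene.

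Wipi1 (chromosome 11, 109573331 to 109611967, minus strand) moved the other way. It measured 9.43, 7.58 and 8.19 CPM in WT and 2.96, 2.90 and 4.44 CPM in Nat10 cKO libraries, all below the WT libraries. The log2 change was -1.10 (SE 0.170, limma adjusted p = 0.000423), and between -1.25 and -1.01 without any 1 library. Wipi2, the member that recruits ATG16L1, did not pass at 0.29 (adjusted p = 0.0560), although its groups did not overlap. It passed with library sizes only, in DESeq2, and when WT replicate 2 or Nat10 cKO replicate 3 was left out. Wdr45, on the X chromosome and the closest relative of Wdr45b, had -0.07 (adjusted p = 0.776), with 2.30 to 3.14 CPM in WT and 2.29 to 2.53 CPM in Nat10 cKO libraries.

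As a share of the family's length-scaled level, Wdr45b held 10.0, 20.9 and 15.9% in the WT libraries and 43.3, 51.7 and 34.9% in the Nat10 cKO libraries. Wipi1 went the other way, from 25.7 ± 3.95% to 7.63 ± 3.00% (SD, n = 3). Wipi2 held 48.0 ± 3.19% in WT and 42.0 ± 4.26% in Nat10 cKO libraries. The summed CPM of the 4 genes was 54.1, 58.9 and 49.7 in WT and 71.7, 83.0 and 65.6 in Nat10 cKO libraries, higher in each of the latter. Wdr45b, listed with its rise known, made up 5.38 of the WT mean of 54.2 CPM. It made up 21.3 of the Nat10 cKO mean of 73.4 CPM, so the higher sum is not read as a trait of the family. Shares use no scaling between libraries, so the factors of the authors do not touch them. With the longest transcript as length, Wdr45b held 15.8 ± 5.37 and 42.2 ± 8.09%.

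**Figure D3:**
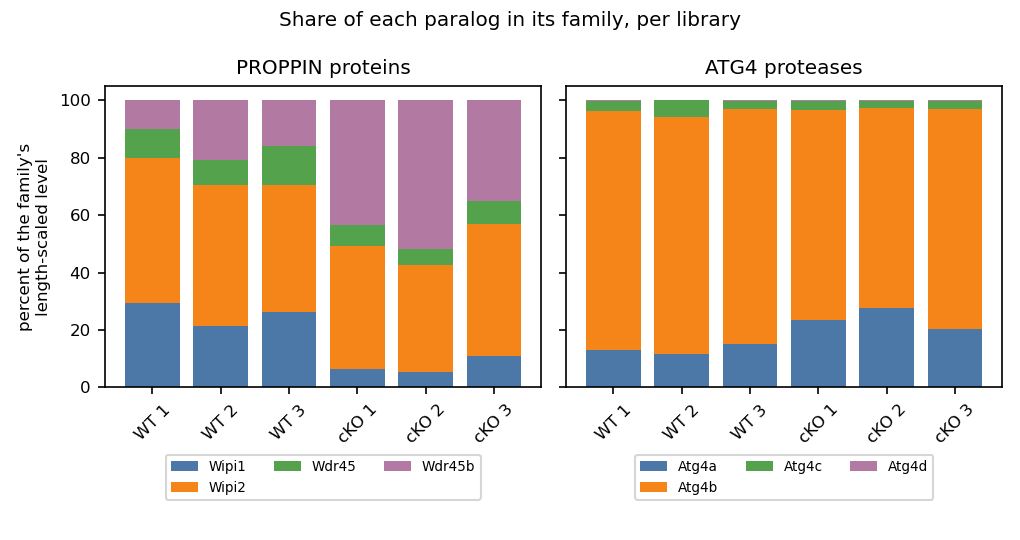
Percent of each family's length-scaled level held by each paralog, 1 bar per library, for the PROPPIN and ATG4 genes. The Wdr45b share is 34.9 to 51.7% in Nat10 cKO and 10.0 to 20.9% in WT libraries, and the Atg4a share is 20.3 to 27.7% and 11.7 to 15.1%.

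Of the 7 conjugation genes, 2 rose and 1 fell (42.9%, where 35.0% of all tested genes passed). Atg10, the E2-like enzyme that joins ATG12 to ATG5, measured 15.6, 12.5 and 17.0 CPM in WT and 8.76, 8.22 and 9.13 CPM in Nat10 cKO libraries, with no overlap. Atg10 fell, with a log2 change of -0.72 (SE 0.144, limma adjusted p = 0.00222). The fall held in 14 of 15 alternatives, and deposited scaling was the exception. The products that ATG10 joins did not pass: Atg5 and Atg12 had log2 changes of 0.18 and 0.22 (adjusted p = 0.129 and 0.0802). Atg3, an E2-like enzyme, had -0.23 (adjusted p = 0.103), and Atg7, the E1-like enzyme, had 0.27 (adjusted p = 0.0802).

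The genes for ATG16L1, which tells the conjugate where to act, and its paralog ATG16L2 rose. Atg16l1 measured 143, 182 and 152 CPM in WT and 182, 191 and 200 CPM in Nat10 cKO libraries, so that the highest WT and the lowest Nat10 cKO library nearly met. Its log2 change was 0.27 (SE 0.10) with a limma adjusted p of 0.0497, and edgeR gave 0.0551. The call was lost with no filter, with the replicate number as a block (limma adjusted p = 0.0554) and when any library but WT replicate 2 was left out. Atg16l2 was low, at 4.76, 4.54 and 3.37 CPM in WT and 5.99, 6.22 and 6.77 CPM in Nat10 cKO libraries, a log2 change of 0.50 (SE 0.158, adjusted p = 0.0260). That call was lost with no filter and when WT replicate 3 or any 1 Nat10 cKO library was left out, and neither gene passed as deposited or on per-read shares.

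The ATG4 genes encode cysteine proteases of the conjugation system. Atg4a (X chromosome, 140956907 to 141164270, plus strand) measured 6.802, 6.03 and 7.37 CPM in WT and 15.4, 21.6 and 12.1 CPM in Nat10 cKO libraries. All Nat10 cKO libraries lay above all WT libraries. Atg4a rose by 1.13 (SE 0.182, limma adjusted p = 0.000535), between 0.93 and 1.32 without any 1 library, and passed in all 15 alternatives. Its annotated pseudogene Atg4a-ps measured 0.371 to 1.18 CPM in WT and 0.535 to 0.715 CPM in Nat10 cKO libraries. How reads shared by the copies were counted is not stated.

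Atg4b, which encodes the broadest and most active of the proteases, measured 135, 132 and 124 CPM in WT and 149, 169 and 142 CPM in Nat10 cKO libraries. It did not pass (log2 change 0.23, adjusted p = 0.0713). As a share of the family's length-scaled level, Atg4b held 82.6 ± 0.676% in WT and 73.1 ± 3.56% in Nat10 cKO libraries, and Atg4a 13.3 ± 1.70 and 23.8 ± 3.69%. The Atg4a shares did not overlap: 11.7 to 15.1% in WT and 20.3 to 27.7% in Nat10 cKO libraries. With the longest transcript as length, Atg4a held less of the family, 8.74 ± 1.13 and 16.3 ± 2.77%. Atg4c did not pass, at -0.05.

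Atg4d was barely detected, with 2, 2 and 8 reads in the WT libraries and 23, 28 and 17 reads in the Nat10 cKO libraries. No WT library reached the minimum of the filter, so Atg4d could be tested only because its Nat10 cKO libraries were higher, and its call (limma adjusted p = 0.0331) is no support for a difference. With 2 of 3 WT counts under the floor of 3 counts per library, the most that an observed count of 0 allows, no fold is given. The call was lost as deposited, on per-read shares, with no filter and when any library but Nat10 cKO replicate 3 was left out. Exons of Atg4d share 1405 bases (19.3% of its exon length) with Kri1 on the opposite strand. Kri1 measured 0.124 to 0.451 CPM in WT and 0.346 to 0.642 CPM in Nat10 cKO libraries.

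Among the cargo receptors, Sqstm1 rose. Its product p62 binds ubiquitinated cargo and is itself degraded by autophagy. Sqstm1 (chromosome 11, 50199366 to 50210827, minus strand) measured 31.7, 31.7 and 29.3 CPM in WT and 42.5, 48.1 and 43.7 CPM in Nat10 cKO libraries, with no overlap. The log2 change was 0.52 (SE 0.103, limma adjusted p = 0.00204), between 0.47 and 0.56 without any 1 library. The call was lost as deposited (0.87, adjusted p = 0.189) and on per-read shares (0.31, adjusted p = 0.409), and held in the other 13 alternatives. Its exons share 580 bases (17.3%) with Mrnip on the opposite strand, which had -0.14 (adjusted p = 0.362).

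Nbr1, a related ubiquitin receptor, was tight within each group, at 113, 114 and 115 CPM in WT and 123, 123 and 122 CPM in Nat10 cKO libraries. The groups did not overlap, yet the log2 change of 0.10 did not pass (adjusted p = 0.363). Optn, the receptor optineurin, had 0.08 (adjusted p = 0.618).

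Tfe3 and Tfeb, transcription factor genes of the lysosomal and autophagy programme, differed widely in level. Tfe3 measured 131, 160 and 123 CPM in WT and 126, 134 and 143 CPM in Nat10 cKO libraries, with overlapping groups and a log2 change of -0.03 (limma adjusted p = 0.851). Tfeb had 2, 0 and 2 reads in the WT libraries and 14, 16 and 12 reads in the Nat10 cKO libraries. All WT counts are under the floor of 3 counts per library, so no fold is given. With no filter, Tfeb had a limma adjusted p of 0.0524.

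**Figure D4:**
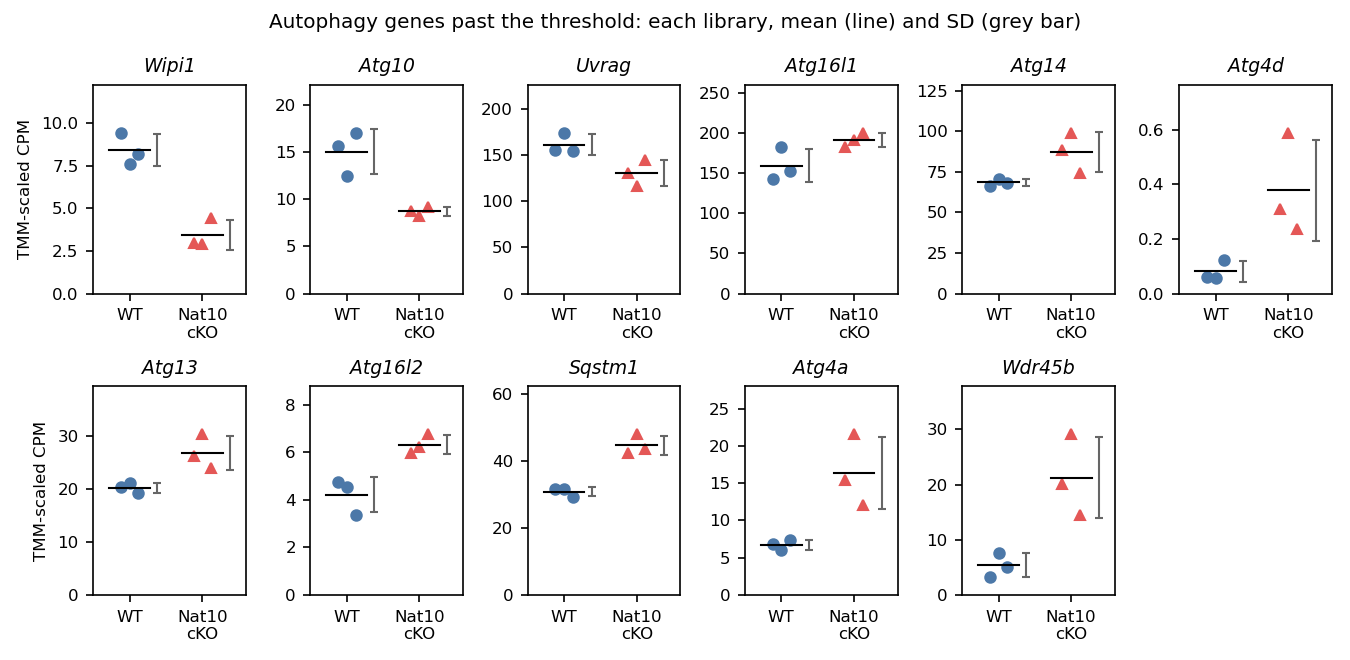
TMM-scaled CPM of the 11 genes past the threshold in each library, with the group mean as a line and the SD as a grey bar (n = 3 per group, every axis from 0). The Nat10 cKO points of Wdr45b spread from 14.6 to 29.1 CPM, and those of Atg10 from 8.22 to 9.13 CPM.

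The Nat10 cKO libraries did not move evenly. Replicate 2 was the highest of the 3 for 6 of the 8 genes called higher and the lowest for all 3 called lower. Replicate 3 was the nearest to WT for 5 of the 8 rises and all 3 falls. Among the oocyte markers called higher, all but Nlrp5 were also highest in Nat10 cKO replicate 2. The share of all called genes with these orders was not computed, so they are not read as a trait of the autophagy genes. Without replicate 3, 11 of the 39 genes were higher and 5 lower, where 35.8% of all tested genes passed. Rb1cc1 and Ambra1 then also passed as lower, and Atg5, Atg9a, Atg12, Atg4b and Wipi2 as higher. Without replicate 1 or replicate 2 there were 3 and 2, where 24.2% and 22.8% of all tested genes passed. Of the WT libraries, leaving out replicate 1 gave 4 and 2 and leaving out replicate 3 gave 3 and 2, where 25.6% and 23.3% passed. Leaving out WT replicate 2 gave 9 and 2, where 34.1% passed. With no filter on low counts there were 3 and 2, where 15.3% of all tested genes passed.

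Of the 12 granulosa markers, 5 were highest in Nat10 cKO replicate 3 and lowest in replicate 2, an order looked for after the values were seen. Inha measured 4.84, 2.48 and 9.21 CPM and Gja1 4.60, 0.841 and 9.46 CPM in Nat10 cKO replicates 1, 2 and 3, against 1.67 to 2.18 and 0.747 to 1.09 CPM in WT libraries. Inhba, Fst and Hsd17b1 had the same order at low levels. The other 7 did not, among them the most abundant, Serpine2, which was lowest in replicate 3, at 267 CPM against 306 and 323 CPM in replicates 1 and 2. The same order held for 3 of 10 theca, stroma and endothelium, 2 of 8 blood and immune and 1 of 10 oocyte markers. Its share over all genes was not computed. Replicate 2 was also the shallowest of the 3 Nat10 cKO libraries, at 47.4 M reads. The part of other cells and of depth in these differences was not tested.

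Exons of 14 of the 40 genes overlap those of another annotated gene, on the opposite strand for 13. The use of strand in counting is not stated, so reads may be shared within such pairs. Among the 11 called genes these are Uvrag, Atg14, Atg16l2, Atg4d and Sqstm1. The opposite-strand partners of Uvrag and Atg14 had 0 reads in every library. Atg16l2 shares 25 bases with Fchsd2, a more abundant gene that fell by 0.42 on the log2 scale. For Becn1, 43.9% of the exon length overlaps Cntd1, which measured 0.498 to 1.58 CPM, while Becn1 measured 28.8 to 34.8 CPM.

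Over the 39 genes, the log2 change had a Spearman rho of 0.14 with the length of the longest transcript, 0.18 with its GC content and -0.08 with the mean level. Over the 17930 tested genes with an annotated transcript, the values were 0.02, 0.11 and -0.01. Genes are not independent replicates, and all points share the same 6 libraries.

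Other genes of the pathway were taken from 4 lists: nutrient sensing upstream, accessory factors of membrane and lipid kinase, further cargo receptors, and fusion with the lysosome. Of 90 tested genes, 23 rose and 11 fell (37.8%), where 35.0% of all tested genes passed, and their median log2 change was 0.07. As deposited, 3 rose and 0 fell (3.33%, where 7.97% of all tested genes passed). On per-read shares 3 rose and 9 fell (13.3%, against 22.1% of all). Without WT replicate 3, 11 rose and 7 fell (20.0%, against 23.3% of all). Without Nat10 cKO replicate 1, 17 rose and 7 fell (26.7%, against 24.2% of all).

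In the nutrient sensing list, 7 of 25 tested genes rose and 4 fell (44.0%, against 35.0% of all tested genes). Prkab1, a regulatory subunit of the energy sensor AMPK, rose from 152 ± 7.17 to 219 ± 16.0 CPM (SD, n = 3). The kinase gene Mtor, whose product restrains autophagy, rose from 35.8 ± 3.33 to 48.3 ± 2.77 CPM. Mlst8, a subunit of both mTOR complexes, rose from 4.41 ± 0.721 to 8.86 ± 1.597 CPM, a call kept in every alternative. Among accessory factors, 4 of 21 rose and 3 fell (33.3%). Rubcnl, which promotes autophagosome maturation, rose from 36.5 ± 4.09 to 54.9 ± 3.97 CPM. Snx18, a membrane-bending sorting nexin, fell from 108 ± 3.16 to 66.0 ± 13.8 CPM, and Foxo3, a transcription factor gene that restrains follicle activation, from 331 ± 11.5 to 228 ± 35.8 CPM.

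Of 23 further receptors, 8 rose and 2 fell (43.5%, against 35.0% of all tested genes). Stbd1, which tethers glycogen, had the smallest p of them and fell from 173 ± 3.00 to 93.7 ± 3.37 CPM (log2 change -0.88, SE 0.0835, limma adjusted p = 1.90e-05). Fundc1, a mitophagy receptor, rose from 19.4 ± 0.326 to 32.9 ± 5.45 CPM, and Atl3, a receptor for tubular endoplasmic reticulum, from 36.4 ± 2.10 to 50.7 ± 3.71 CPM. In the fusion list, 4 of 21 rose and 2 fell (28.6%). The 3 with the smallest p encode subunits of the HOPS tether: Vps41 rose by 0.54 and Vps16 by 0.63 on the log2 scale. Vps18 measured 0.124, 0.402 and 0.0933 CPM in WT and 0.695, 0.631 and 0.747 CPM in Nat10 cKO libraries, and reached the minimum of the filter in 1 of 3 WT and 3 of 3 Nat10 cKO libraries, so that its call is no support for a difference. That call was lost without WT replicate 3 (adjusted p = 0.0513). Of these 12 named genes only Mlst8 and Vps18 passed as deposited.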

How the data were processed

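The tools named in the submitters' processing notes are Trim Galore (0.6.7), STAR (2.7.10a) and featureCounts, with the build mm10; their settings and the gene models counted are not stated. The authors deposited WT replicate 1 as whole read counts per gene. They deposited the other 5 libraries as a scaled signal, in which each read count was multiplied by a factor of that library, from 0.908 to 1.38; no formula is given. Dividing a column by its lowest value above 0 returned whole reads for 100% of values (tolerance 0.001). These reads gave CPM with TMM scaling. Genes passed filterByExpr with a minimum count of 10, and log2(CPM + 1) was tested with limma (trended, robust, two-sided), with Benjamini-Hochberg adjustment over 18353 genes. That scale understates changes of low genes. edgeR on the recovered reads was an alternative and called 6202 genes, against 6422 by limma. Deposited scaling divides the deposited values by 1 constant, so differences between library totals remain. Per-read shares multiply plain CPM by the factor. Gene models were those of GENCODE M21 (GRCm38). Genes past the threshold are named with their values, the others at least by log2 change, except for some that are counted in the totals but not reported here. Of each further list the 3 genes with the smallest p are named. Members and lists were chosen with earlier results of these data known. On simulated data with 200 of the genes changed (17982 tested), limma recovered 35.5% of 1.5-fold, 72.7% of 2-fold and 96.8% of 4-fold changes, and 6.62% of its calls were false. Far fewer genes changed there than the 35.0% called in the data, so these rates do not carry over directly. Software was limma 3.58.1, edgeR 4.0.16 and DESeq2 1.42.0 in R 4.3.3, and pandas 2.3.3, numpy 2.4.6 and matplotlib 3.10.9 in Python 3.11.15.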

Additional observations from a re-analysis of the deposited data

How the results depend on the processing

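Of the 39 tested autophagy genes, 8 were higher and 3 lower under TMM scaling, where 17.4% of all tested genes were higher and 17.6% lower. The rises were 2 with deposited scaling, 2 with the deposited factors on per-read shares and 3 with no filter on low counts. Of all tested genes, 6.58%, 5.60% and 8.06% rose under these settings. The falls were 0 with deposited scaling, where 1.39% of all tested genes fell. Leaving out each library in turn gave 3 to 11 rises and 2 to 5 falls, where 22.8% to 35.8% of all tested genes passed. The rises fell to 3 without WT replicate 3, Nat10 cKO replicate 1 or Nat10 cKO replicate 2, each time Wdr45b, Atg4a and Sqstm1. They fell to 4 without WT replicate 1. Among the further pathway genes, 23 rose and 11 fell. These became 3 and 0 with deposited scaling, where 6.58% of all tested genes rose and 1.39% fell. Rises became 3 on per-read shares, where 5.60% of all tested genes rose. Leaving out each library gave 11 to 26 rises and 7 to 12 falls, where 22.8% to 35.8% of all tested genes passed. Uvrag reversed to 0.054 with deposited scaling. Replicate numbers are shared by the groups, but same-numbered libraries did not deviate together (r = 0.08, 0.07 and -0.12), so the numbers were not taken as pairs. With the replicate number as a block, 7 rose and 3 fell, where 34.0% of all tested genes passed, and only Atg16l1 lost its call. Atg12 and Atg4b also passed with library sizes only, and Atg7 in DESeq2. Leaving out genes that passed the filter through 1 group only, chosen after seeing the data, gave 7 rises and 3 falls and moved no count of the further genes. The difference in family share between genotypes was 27.7 percentage points for Wdr45b and 10.5 for Atg4a, and 26.3 and 7.58 with the longest transcript as length. Both moved by less than the SD of the Nat10 cKO libraries (8.39 and 3.69) with that length and without any 1 library. For Atg4a the move with that length, and without some single libraries, was larger than the WT SD of 1.70. At a depth of 33.5 M reads or more, Tfeb and Atg4d remained too low for a fold change that can be read.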

Other observations

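Ratios between genes of the same library do not depend on any scaling between libraries, and 4 were computed after the values had been seen, so they are descriptions with no test. Per exon length, the ratio of Atg14 to Uvrag, whose products take the same place in alternative lipid kinase complexes, was 0.892, 0.849 and 0.929 in WT libraries. It was 1.42, 1.77 and 1.07 in Nat10 cKO libraries, above all WT values. The ratio of Wdr45b to Wipi1 was 0.342, 0.974 and 0.607 in WT and 6.61, 9.71 and 3.17 in Nat10 cKO libraries. The ratio of Atg10 to Atg7, the enzymes that act in turn on ATG12, was 3.93, 2.79 and 4.07 in WT and 1.68, 1.62 and 1.78 in Nat10 cKO libraries, with no overlap. The ratio of Atg4a to Atg4b was 0.156, 0.142 and 0.184 in WT and 0.320, 0.398 and 0.265 in Nat10 cKO libraries, also with no overlap.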
